A study of Mus musculus with 18 samples.

Results

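The genes described here are Hmox1 and 9 genes of heme and iron handling: Hmox2, Blvra, Blvrb, Alas1, Slc40a1, Hamp, Fth1, Tfrc and Tfr2. They are 10 of the 23930 genes of the panel, chosen by symbol for a question that came from measured values of these data: Hmox1 was higher on ethanol in control mice and not in Yap knockout mice, and it was asked whether its neighbours in the pathway did the same. Hmox1 was therefore chosen for its level in the control and knockout libraries, and its values there are given as a description with no test. Of the 10 genes, 9 had at least 1 count per 1e6 reads (CPM) in at least 3 of 18 libraries and were tested. Fth1 was not.

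RNA of whole mouse liver was read with a targeted panel of amplicons, which gives a read count for each gene. All mice were Yap fl/fl and received an adeno-associated virus (AAV) at 8 weeks of age. YAP is a transcriptional co-activator of the Hippo pathway. Yap knockout mice received AAV-TBG-Cre, YAP overexpressing mice AAV-TBG-YAP-P2A-EGFP and control mice AAV-TBG-GFP. The TBG promoter is active in hepatocytes, so the Cre and the transgene were directed to these cells and not to the rest of the liver. The dose was 0.5 × 10¹¹ genome copies per mouse in the knockout and 2 × 10¹¹ in the other genotypes, so that knockout and control also differed in virus dose. From 2 weeks later, mice were given liquid diet with 5 days of acclimation and then 4 weeks of Lieber-DeCarli ethanol diet or pair-fed control diet. Ethanol-fed mice received a last gavage of ethanol (5 g/kg, 33% v/v) and pair-fed mice one of maltose-dextrin, 9 hours before the end. Each of the 6 groups had 3 libraries. The labels do not say that these are separate animals, so the p-values measure only the spread between libraries.

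Libraries held 4680152 to 5806228 reads, and 1 read equalled 0.172 to 0.214 CPM. Yap1 read 4.39 ± 0.925 CPM in ethanol-fed knockout, 8.50 ± 5.82 in pair-fed knockout, 122 ± 19.5 in ethanol-fed overexpressing, 142 ± 79.0 in pair-fed overexpressing, 62.4 ± 4.25 in ethanol-fed control and 55.4 ± 4.80 in pair-fed control mice (SD, n = 3 each). Library 1 of the pair-fed overexpressing mice, at 57.6 CPM, lay within the control range of Yap1. All 7 matched hepatocyte markers read at least 1722 CPM in every library. The 3 pair-fed knockout libraries and pair-fed control libraries 2 and 3 read Xist, and the other libraries read Y-linked genes instead. In knockout mice ethanol and this sex-chromosome pattern cannot be told apart, whereas all ethanol-fed libraries and all overexpressing libraries share 1 pattern. On pair-feeding the genotypes also differ in this pattern. Only the pair-fed control group holds both patterns, so a term for the pattern rests on its library 1 against its libraries 2 and 3. In knockout mice, values with this term carry the offset of that 1 library and do not separate ethanol from the pattern. Library 1 of the ethanol-fed control mice stood apart with the highest neutrophil marker sum (40.3 CPM), although 5 of 6 such markers had a median under 1 CPM.

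Heme oxygenases open the heme ring and release iron, carbon monoxide and biliverdin, which biliverdin reductases turn into bilirubin. Hmox1 encodes the form that is induced by heme and oxidative stress, and in the liver Kupffer cells, the resident macrophages, use it to recycle heme from red cells. Hepatocytes make heme for cytochromes P450, beginning with the enzyme encoded by Alas1, and secrete hepcidin, the product of Hamp. Hepcidin brings about the loss of ferroportin, the iron exporter encoded by Slc40a1, and so holds iron inside cells.

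Among the tested members Hamp, Tfrc and Alas1 spread most between libraries of 1 group, with a within-group SD of 1.74, 1.02 and 0.96 on the log2(CPM + 1) scale, and their promoters are shown for that reason. Each is 250 bases before to 50 after the start in RefSeq, build GRCm38.p6, and capitals mark the motifs found. Hamp lies on the minus strand at chr7:30943980-30944279, Alas1 on the minus strand at chr9:106247905-106248204 and Tfrc on the plus strand at chr16:32608646-32608945.
Hamp: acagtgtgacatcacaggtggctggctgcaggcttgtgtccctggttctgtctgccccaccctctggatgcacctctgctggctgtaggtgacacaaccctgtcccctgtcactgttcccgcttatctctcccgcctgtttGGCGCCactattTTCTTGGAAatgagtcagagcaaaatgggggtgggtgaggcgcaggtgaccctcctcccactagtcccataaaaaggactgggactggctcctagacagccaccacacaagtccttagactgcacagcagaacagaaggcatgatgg
Alas1: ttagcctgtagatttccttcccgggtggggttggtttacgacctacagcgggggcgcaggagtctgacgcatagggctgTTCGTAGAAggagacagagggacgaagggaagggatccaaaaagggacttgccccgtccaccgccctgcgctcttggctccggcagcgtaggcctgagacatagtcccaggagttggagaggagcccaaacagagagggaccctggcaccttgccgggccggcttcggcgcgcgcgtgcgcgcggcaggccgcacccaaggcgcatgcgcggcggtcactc
Tfrc: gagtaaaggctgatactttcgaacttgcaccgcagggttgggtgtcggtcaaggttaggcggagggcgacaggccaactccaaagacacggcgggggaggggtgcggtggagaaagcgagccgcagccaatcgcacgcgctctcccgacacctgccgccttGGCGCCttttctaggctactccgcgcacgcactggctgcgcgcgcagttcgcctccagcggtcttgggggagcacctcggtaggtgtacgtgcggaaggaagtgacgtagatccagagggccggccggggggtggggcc
Motifs were searched on both strands, and none of the matches overlapped. GGCGCC, the core of the element through which bone morphogenetic proteins act, begins 109 bases before the Hamp start and 89 before that of Tfrc, and 11.96% of 27025 promoters hold it. TTCNNNGAA, the form of sites bound by STAT factors, begins 97 bases before the Hamp start and 171 before that of Alas1, and 8.47% of promoters hold it. Promoters were found for 8 of the 10 members, and those of Hmox1 and Slc40a1 were not searched. TGACNNNGC, the core of the antioxidant response element, was in 1 of those 8, Blvra, against 12.5% of all promoters. GGAATG, the form bound by the TEAD partners of YAP, was in 0 of the 8, against 14.6%.

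Hmox1 read 50.4, 22.6 and 25.6 CPM in ethanol-fed knockout libraries and 57.7, 41.5 and 31.7 CPM in pair-fed knockout libraries. In overexpressing mice it read 41.2, 52.5 and 47.9 CPM on ethanol and 34.3, 64.2 and 24.9 CPM on pair-feeding. In control mice it read 96.2, 183 and 350 CPM on ethanol and 24.5, 39.8 and 35.8 CPM on pair-feeding. The 3 ethanol-fed control libraries were the highest of all 18, above the pair-fed controls as were 7.69% of all genes and above the ethanol-fed knockout as were 5.21%. They differed among themselves more than those of any other group. The order of the group means was ethanol-fed control (210 ± 129), ethanol-fed overexpressing (47.2 ± 5.70), pair-fed knockout (43.6 ± 13.1), pair-fed overexpressing (41.1 ± 20.5), pair-fed control (33.3 ± 7.92) and ethanol-fed knockout (32.9 ± 15.2 CPM, SD, n = 3 each). The first of these did not overlap with the second (7.54% of all genes lay apart in that direction), and all later neighbours in the order overlapped.

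On the log2(CPM + 1) scale Hmox1 differed between ethanol-fed and pair-fed mice by -0.45 ± 0.40 in the knockout and by 2.45 ± 0.40 in control mice (SE of the fit). In the knockout the diets also differed in the sex-chromosome pattern, and no value with a term for it is given. Against pair-fed control library 1 alone, which shares the sex-chromosome pattern of the ethanol-fed libraries, the control value was 2.86. With 1 control library left out it ran from 1.99 to 2.92, the highest being without ethanol-fed control library 1. Among ethanol-fed mice, where every library has the same pattern, Hmox1 was lower than in controls by a log2 difference of -2.54 ± 0.40 in the knockout and -1.94 ± 0.40 in overexpressing mice. The overexpressing libraries were not used in choosing Hmox1, so ethanol against pair-feeding in them can be tested. The log2 change there was 0.30 ± 0.40 with a 95% interval of -0.54 to 1.13 and an adjusted p of 0.793 (limma, Benjamini-Hochberg over 11720 genes), and 1.15% of all genes were called in that comparison. The ranges of the 2 diets overlapped. Without library 1 of the pair-fed overexpressing mice, whose Yap1 was at the control level, the change was 0.22 with an adjusted p of 0.893. The ethanol response of overexpressing minus that of control mice was -2.16 ± 0.56, and that of knockout minus control mice -2.90 ± 0.56. Each is a description, since both use the control values for which Hmox1 was chosen.

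**Figure D1:**
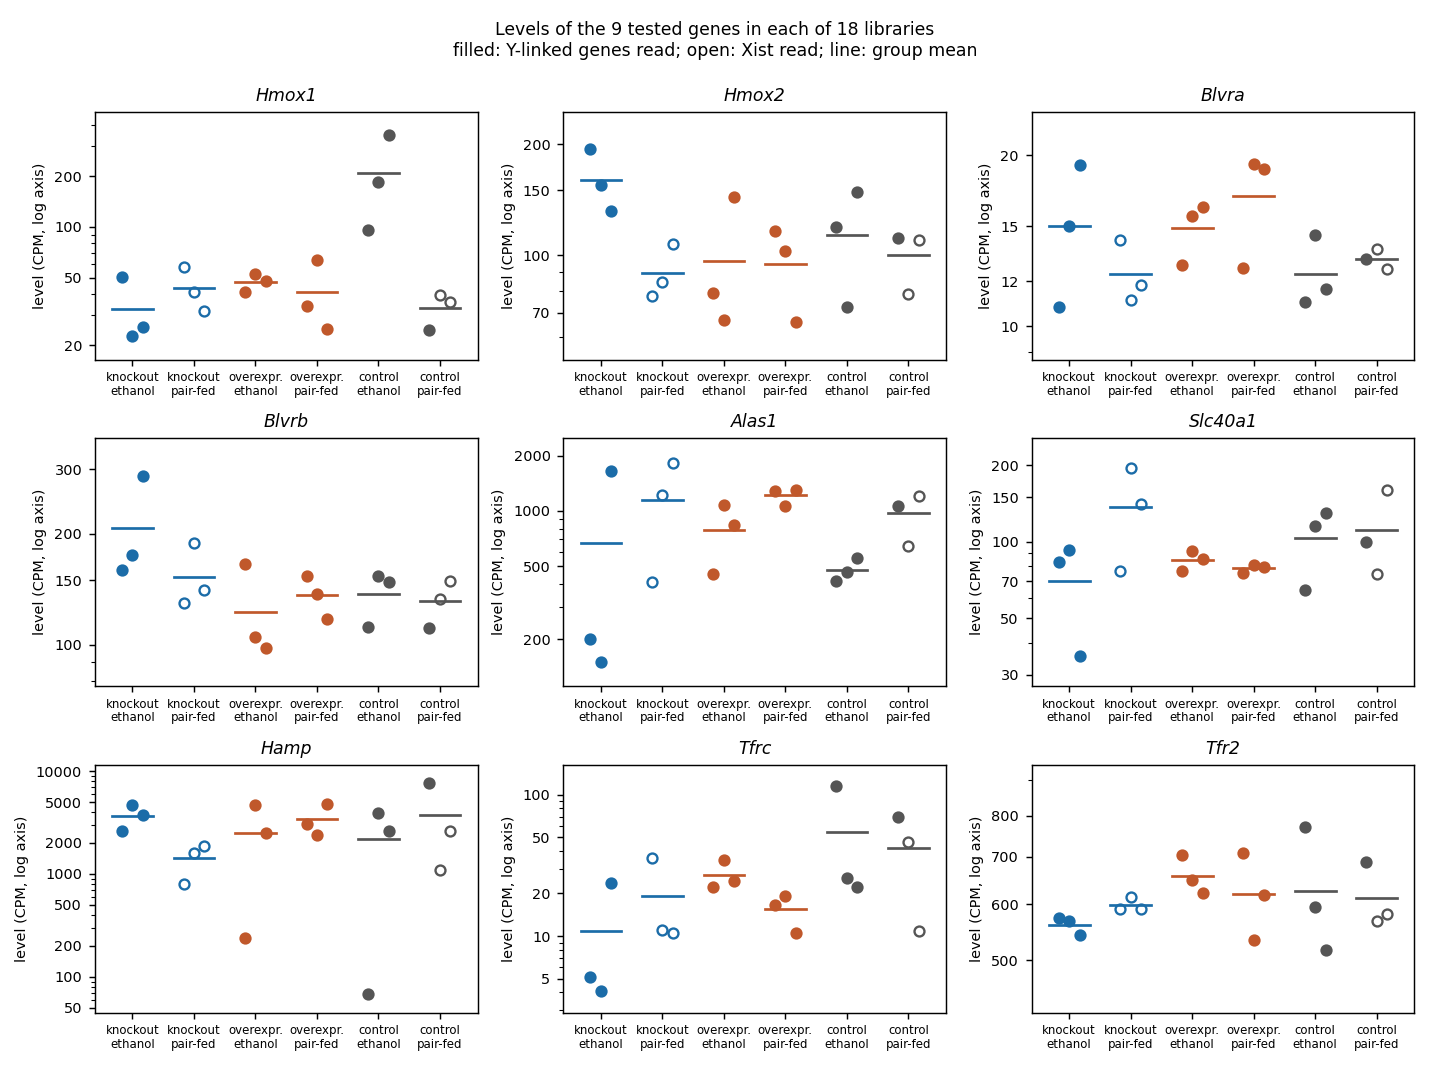
Levels in CPM (log axis) of the 9 tested genes in each of 18 libraries, by group, with a line at the group mean. Filled points read Y-linked genes and open points read Xist. The 3 ethanol-fed control libraries stand above all others for Hmox1, and no other panel shows that order.

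Kupffer cell and macrophage markers are given beside Hmox1 because these cells use it. Of 12 markers, none was at 0 in all libraries, and C1qa and C1qc had a median under 1 CPM. Their sum was 200 to 244 CPM in ethanol-fed knockout and 508 to 633 CPM in pair-fed knockout libraries. In overexpressing libraries it was 412 to 439 CPM on ethanol and 307 to 642 CPM on pair-feeding, and in pair-fed control libraries 483 to 527 CPM. Ethanol-fed control libraries 1, 2 and 3 read 647, 312 and 313 CPM, where Hmox1 read 96.2, 183 and 350 CPM. In knockout mice 8 of 11 tested markers were called lower on ethanol, where 5.79% of all genes were called lower. Ethanol and the sex-chromosome pattern cannot be told apart there. Clec4f, a receptor of Kupffer cells, read 43.1 ± 3.95 CPM in ethanol-fed knockout and 111 ± 18.1 CPM in pair-fed knockout mice (SD, n = 3 each). Cd163, another of the markers, was even there, at 33.9 ± 6.10 and 34.8 ± 4.57 CPM. In bulk liver, fewer cells of a type and less RNA per cell cannot be told apart. In control mice 0 of 11 were called on ethanol, against 2.7% of all genes, and 10 of 11 had a negative change. The median log2 change there was -0.37, against -0.09 for all genes. Between ethanol-fed knockout and control mice, which share 1 pattern, 11 of 11 were lower in the knockout. Their median log2 difference was -0.78, against 0.06 for all genes. Of these 0 were called, against 0.0171% of all genes. Between ethanol-fed overexpressing and control mice 5 of 11 were lower in overexpressing mice, and 0 were called, against 0.102%. The part of these markers in the level of Hmox1 was not tested.

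Hmox2 encodes the constitutive heme oxygenase. It read 194, 156 and 132 CPM in ethanol-fed knockout libraries and 77.5, 84.6 and 107 CPM in pair-fed knockout libraries. The groups did not overlap, as was the case in the higher direction for 11.7% of all genes in that comparison. The log2 change was 0.83 ± 0.29 with an adjusted p of 0.0768 (limma), past the threshold of 0.05 with the knockout groups fitted alone (adjusted p 0.0411) and at 0.884 with a term for the sex-chromosome pattern. In overexpressing mice Hmox2 read 78.9, 67.0 and 144 CPM on ethanol and 116, 103 and 66.2 CPM on pair-feeding, and in control mice 120, 72.6 and 148 CPM on ethanol and 112, 78.6 and 110 CPM on pair-feeding. Those groups overlapped, with log2 changes of -0.02 ± 0.29 and 0.14 ± 0.29.

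Blvra and Blvrb encode the biliverdin reductases. Blvra was the more even of the pair, from 10.8 to 19.3 CPM over all libraries, with ethanol changes of 0.23, -0.16 and -0.09 on the log2 scale in knockout, overexpressing and control mice. Blvrb read 160, 175 and 287 CPM in ethanol-fed knockout, 166, 105 and 98.0 CPM in ethanol-fed overexpressing and 112, 154 and 148 CPM in ethanol-fed control libraries. The knockout libraries lay above all ethanol-fed controls, as for 8.23% of genes, and 1 overexpressing library lay within the knockout range. The log2 difference of overexpression from knockout on ethanol was -0.74 ± 0.24 (adjusted p 0.12) and that of knockout from control 0.55 ± 0.24 (adjusted p 0.563, both limma). Neither passed the threshold.

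Alas1 read 200, 151 and 1646 CPM in ethanol-fed knockout libraries and 408, 1216 and 1831 CPM in pair-fed knockout libraries. In overexpressing mice it read 454, 1078 and 843 CPM on ethanol and 1284, 1068 and 1297 CPM on pair-feeding. In control mice it read 415, 464 and 552 CPM on ethanol and 1069, 644 and 1199 CPM on pair-feeding. The mean was lower on ethanol in each genotype, and in control mice the groups did not overlap, as for 14.4% of genes in the lower direction. None of the changes passed the threshold: -1.39 ± 0.63, -0.70 ± 0.63 and -0.98 ± 0.63 on the log2 scale in knockout, overexpressing and control mice, with adjusted p of 0.171, 0.668 and 0.438 (limma). Ethanol-fed knockout library 3 was the highest of its group. Without it Alas1 fell by 2.47 on the log2 scale in the knockout (adjusted p 0.0027) and was higher by 2.09 in overexpressing than in knockout mice on ethanol (adjusted p 0.0221), against 1.01 (adjusted p 0.479) with it.

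Slc40a1 read 83.0, 92.8 and 35.4 CPM in ethanol-fed knockout libraries and 76.9, 196 and 140 CPM in pair-fed knockout libraries. In overexpressing mice it read 76.4, 92.1 and 85.4 CPM on ethanol and 75.3, 80.7 and 79.6 CPM on pair-feeding. In control mice it read 64.5, 116 and 129 CPM on ethanol and 99.9, 74.8 and 160 CPM on pair-feeding. Within each genotype the diets overlapped. The knockout change of -0.97 ± 0.36 on the log2 scale had an adjusted p of 0.0907 (limma), against 0.0279 without pair-fed knockout library 1 and 0.335 without ethanol-fed knockout library 3. Kupffer cells also carry ferroportin, and their markers were lower in the same comparison as given above. Their part in Slc40a1 was not tested.

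Hamp read 2632, 4673 and 3728 CPM in ethanol-fed knockout libraries and 804, 1595 and 1887 CPM in pair-fed knockout libraries. In overexpressing mice it read 240, 4720 and 2503 CPM on ethanol and 3075, 2396 and 4807 CPM on pair-feeding. In control mice it read 68.2, 3880 and 2589 CPM on ethanol and 7614, 1088 and 2636 CPM on pair-feeding. The knockout groups did not overlap, Hamp being one of the 11.7% of genes that lay higher, and in the other genotypes 1 ethanol-fed library lay far below the rest. The log2 changes of 1.41 ± 1.14, -1.21 ± 1.14 and -1.66 ± 1.14 in knockout, overexpressing and control mice had adjusted p of 0.459, 0.681 and 0.473 (limma). Without library 1 of the ethanol-fed control mice the control value was 0.18, and without library 1 of the ethanol-fed overexpressing mice the overexpressing value was 0.07. With a term for the sex-chromosome pattern, which rests on pair-fed control library 1 (7614 CPM) against libraries 2 and 3, the knockout value was -0.75. Fitted to the knockout groups alone it had an adjusted p of 0.0273. Mice carry a near-identical second hepcidin gene, Hamp2, so reads may be shared between them.

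Fth1, the ferritin heavy chain that stores iron, was listed at 0 in 16 of 18 libraries. It held 3 reads (0.557 CPM) in ethanol-fed knockout library 2 and 1 read (0.174 CPM) in pair-fed knockout library 3. A count of 0 allows up to 3 reads, which is 0.517 to 0.641 CPM, and no comparison of Fth1 was made. This limit covers counting error only and applies to reads of the panel's amplicon. Whether that amplicon reads Fth1 RNA was not tested.

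Tfrc encodes the transferrin receptor for iron uptake. It read 5.13, 4.08 and 23.6 CPM in ethanol-fed knockout, 22.4, 34.6 and 24.6 CPM in ethanol-fed overexpressing and 115, 25.7 and 22.2 CPM in ethanol-fed control libraries. On pair-feeding it read 35.7, 11.1 and 10.5 CPM in the knockout, 16.7, 19.1 and 10.5 CPM in overexpressing and 69.5, 46.0 and 10.9 CPM in control libraries. Ethanol-fed knockout libraries 1 and 2 were the lowest of all 18. On ethanol the log2 difference of knockout from control was -2.18 ± 0.68 (adjusted p 0.39) and that of overexpression from knockout 1.60 ± 0.68 (adjusted p 0.253, limma). The highest value, 115 CPM, was in library 1 of the ethanol-fed control mice, which had the highest neutrophil marker sum. The sum of Kupffer cell and macrophage markers was also highest there (647 CPM). The part of such cells was not tested. Without that library the knockout difference was -1.44 (adjusted p 0.584). Overexpressing mice had higher Tfrc on ethanol in all 3 libraries than on pair-feeding, as for 7.83% of genes in that direction, with a log2 change of 0.80 ± 0.68 (adjusted p 0.643).

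Tfr2 encodes the second transferrin receptor, a sensor of iron in hepatocytes. It was the steadiest member on the log2 scale, with a range of 517 to 772 CPM over all 18 libraries. It read 575, 568 and 542 CPM in ethanol-fed knockout and 591, 615 and 592 CPM in pair-fed knockout libraries. The ethanol-fed values lay below the pair-fed ones, as for 16.9% of genes in that direction, with a log2 change of -0.09 ± 0.16 (adjusted p 0.759). Its largest difference in the comparisons of 2 groups was 0.23 ± 0.16 on the log2 scale, between overexpressing and knockout mice on ethanol (adjusted p 0.557, limma). Those groups did not overlap, with 704, 650 and 622 CPM in overexpressing libraries, as for 8.94% of genes in that direction.

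In control mice, where Hmox1 was 2.45 higher on ethanol on the log2 scale, the changes of the 8 tested neighbours ran from -1.66 to 0.29, with a median of -0.03 against -0.09 for all genes. The highest upper 95% bound among them was 1.70. Of these, 0 were called by limma, where 2.7% of all genes were, so that a count of 0 in 8 lies near the share of all genes. None had an unadjusted p under 0.05, against 18.1% of all genes, and edgeR's quasi-likelihood test on recovered reads called none. In knockout mice on ethanol, 0 of 8 were called, against 9.9% of all genes, and 3 had an unadjusted p under 0.05 (2 by edgeR), against 26.1% of all genes. In overexpressing mice 0 of 8 were called and 0 had an unadjusted p under 0.05, against 1.15% and 14.5% of all genes.

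Between genotypes on ethanol, 0 of 8 neighbours were called in knockout against control mice (0.0171% of all genes), with 2 at an unadjusted p under 0.05 (8.34% of all genes), and 0 of 8 in overexpressing against control mice (0.102%), with none at that level (8.84% of all genes). In overexpressing against knockout mice on ethanol 0 of 8 were called (1.88% of all genes), with 3 at an unadjusted p under 0.05 (15.4% of all genes). On pair-feeding 0 of 8 were called in knockout (0.00853%) and in overexpressing mice (0.145%) against control. When the ethanol response of knockout or overexpressing mice was compared with that of controls, 0 neighbours and 0% of all genes were called by limma in either comparison. None of the 8 neighbours had an unadjusted p under 0.05 in them, against 5.68% of all genes for knockout and 7.23% for overexpressing mice, and edgeR called none either. The comparisons of knockout and of overexpression with control mice share the control libraries.

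**Figure D2:**
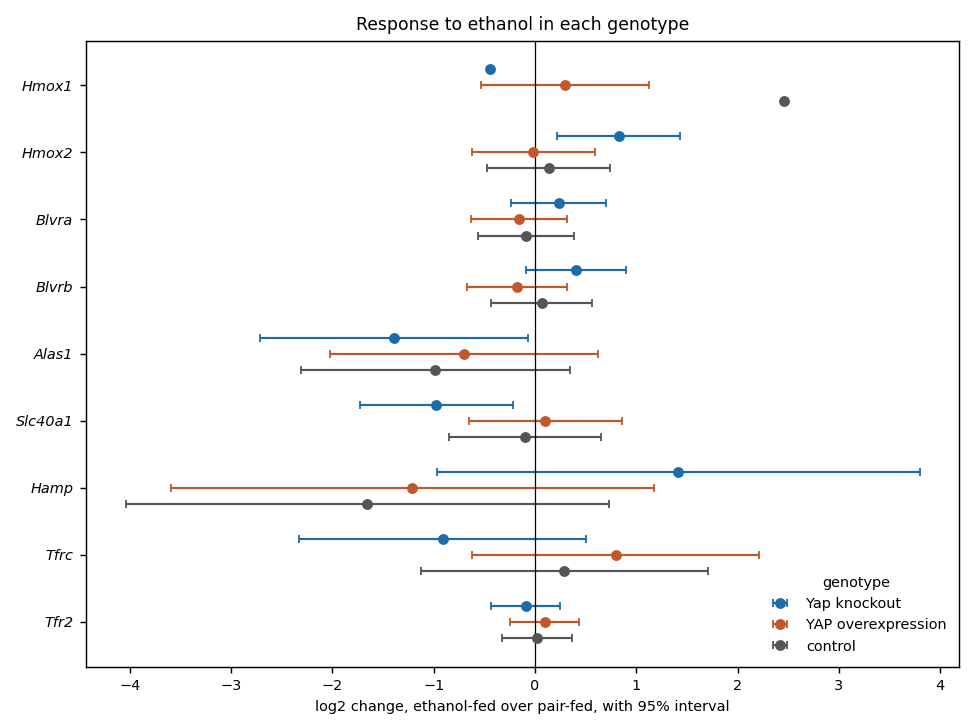
Change on the log2(CPM + 1) scale of ethanol-fed over pair-fed libraries for the 9 tested genes in Yap knockout, YAP overexpressing and control mice, with 95% intervals of the fit (n = 3 libraries a group). For Hmox1 an interval is drawn only in overexpressing mice. Hmox1 was chosen for its control point, at 2.45, and the other control points lie between -1.66 and 0.29.

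**Figure D3:**
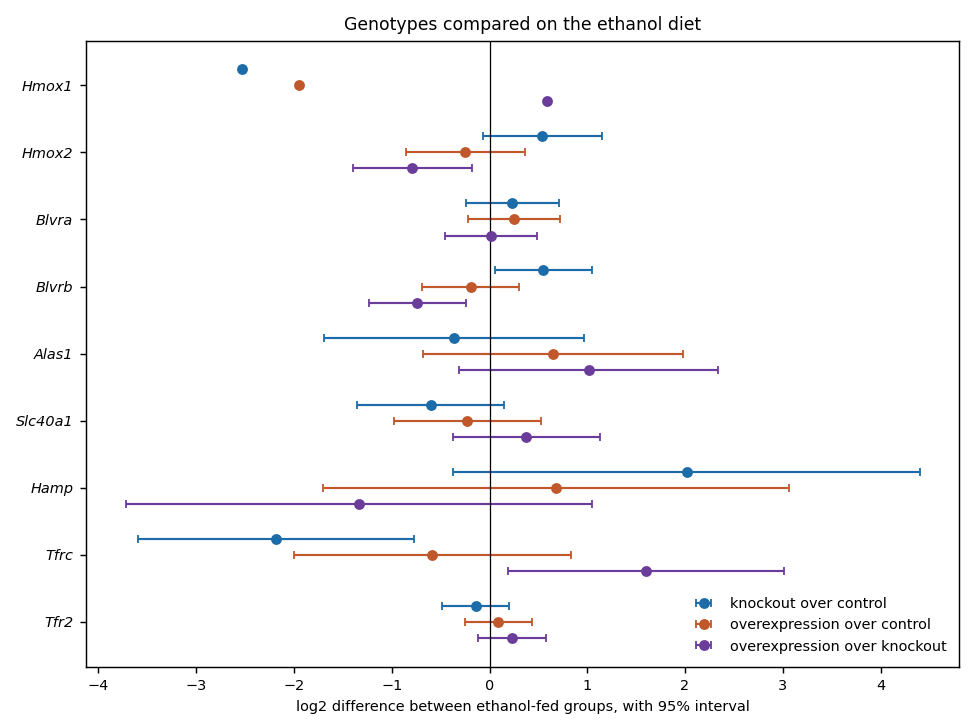
Difference on the log2(CPM + 1) scale between genotypes on the ethanol diet for the same 9 genes, with 95% intervals of the fit (n = 3 libraries a group). Hmox1 is drawn without intervals, at -2.54 for knockout over control and -1.94 for overexpression over control.

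Other genes of heme and iron handling were counted from 6 lists, of which 63 genes were tested. In knockout mice on ethanol, 4 were called higher and 4 lower, against 4.1% and 5.79% of all genes. In overexpressing mice 1 was called higher and 0 lower, against 0.401% and 0.751%. In control mice 2 were called higher and 1 lower, against 1.02% and 1.67%. Between overexpressing and knockout mice on ethanol 1 was higher and 2 were lower, against 0.529% and 1.35%, and in the other comparisons 0 were called.

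The iron transport and storage list held most of these calls. Lcn2, which binds the siderophores by which bacteria take up iron and is a known acute-phase gene, rose with ethanol by 5.48 ± 0.86, 4.81 ± 0.86 and 4.57 ± 0.86 on the log2 scale in knockout, overexpressing and control mice (adjusted p 0.000836, 0.0118 and 0.00934, limma). Steap4, a metalloreductase, rose by 1.81 ± 0.27 in knockout (adjusted p 0.000532) and 1.26 ± 0.27 in control mice (adjusted p 0.0158). Slc39a14, the importer of iron not bound to transferrin, rose by 1.03 ± 0.19 in the knockout (adjusted p 0.00268). Aco1, which encodes an iron regulatory protein, fell by 0.55 there (adjusted p 0.0309), a call that edgeR did not make (adjusted p 0.0905). With a term for the sex-chromosome pattern the changes of Lcn2 were 5.52 ± 1.58 in knockout and 4.60 ± 1.24 in control mice (adjusted p 0.355 and 0.154), about as large and with a wider error. Those of Steap4 were 1.31 ± 0.47 and 0.93 ± 0.37 (adjusted p 0.568 and 0.367). Against pair-fed library 1 alone, Lcn2 and Steap4 in control mice gave the same changes, 4.60 and 0.93, so this is not a separate check. Lcn2 lost its call without ethanol-fed control library 2 in control mice, and without pair-fed library 1 or 3 or ethanol-fed library 2 or 3 in overexpressing mice. Steap4 lost its call in control mice without library 2 or 3 of either diet. Aco1 kept its call in 2 of the 6 fits that left out a knockout library.

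Slc39a14 and Steap4 also differed between genotypes on ethanol, where all libraries share the sex-chromosome pattern. Slc39a14 read 152, 151 and 189 CPM in ethanol-fed overexpressing libraries, against 327, 296 and 431 CPM in ethanol-fed knockout libraries, without overlap, as for 12.5% of genes in that direction. The log2 difference was -1.08 ± 0.19 (adjusted p 0.00627, limma), and it passed the threshold under all 18 alternatives. Ethanol-fed control libraries, at 276, 302 and 205 CPM, lay above the overexpressing range and overlapped the knockout range. Steap4 read 118, 153 and 229 CPM in ethanol-fed overexpressing and 416, 321 and 300 CPM in ethanol-fed knockout libraries, a log2 difference of -1.09 ± 0.27 (adjusted p 0.0408) that passed under 10 of 18 alternatives and was lost without library 1 or 2 of either group. It was also lost with a replicate block (adjusted p 0.058), a block for the range of library barcodes (0.0569), edgeR (0.0543) and no filter on low values. In neither gene did the ethanol response of knockout or overexpressing mice differ from that of controls past the threshold. In those comparisons 0% of all genes passed it. The responses of overexpressing and knockout mice were not compared with each other.

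In heme synthesis 8 genes were tested. Alad, the enzyme after Alas1, fell by 0.76 on the log2 scale in knockout mice (adjusted p 0.0225, limma), and its changes of -0.67 ± 0.20 and -0.72 ± 0.20 in overexpressing and control mice had adjusted p of 0.108 and 0.0622. The knockout call of Alad held in 2 of the 6 fits that left out a library and not in edgeR (adjusted p 0.0512). Cpox, a later enzyme, read 263, 226 and 213 CPM in ethanol-fed overexpressing and 151, 134 and 106 CPM in ethanol-fed knockout libraries. Its log2 difference of 0.85 ± 0.22 had an adjusted p of 0.0489, and it lost its call when any 1 of the 6 libraries was left out (adjusted p up to 0.157 over all alternatives). Alas2, the form of red-cell precursors, read 175, 109 and 172 CPM in pair-fed overexpressing libraries and 125, 25.4 and 23.1 CPM in pair-fed control libraries. It was not called (adjusted p 0.213, limma). The control library at 125 CPM, the only one with the sex-chromosome pattern of the overexpressing libraries, lay within their range.

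In the list of heme scavenging and transport 9 genes were tested. Hp, haptoglobin, which binds free hemoglobin, rose by 1.29 ± 0.29 on the log2 scale with ethanol in knockout mice (adjusted p 0.0086, limma), with changes of 0.84 ± 0.29 in both other genotypes (adjusted p 0.164 in overexpressing and 0.124 in control mice). Lrp1, the receptor that takes up heme bound to hemopexin, fell by 0.82 in knockout mice (adjusted p 0.0207), a call that was lost without pair-fed library 2 or ethanol-fed library 1 or 2. Hpx, hemopexin, was not called in any of the comparisons. None of the 8 knockout calls of the 6 lists passed the threshold with the sex-chromosome term. That term rests on pair-fed control library 1 against libraries 2 and 3. Under it Slc39a14 was 1.05 ± 0.35, Mafg was -1.08 ± 0.42, and Hp, Lrp1, Alad and Aco1 were 0.34 ± 0.45, -0.57 ± 0.39, -0.51 ± 0.37 and -0.27 ± 0.28.

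Among 11 regulators of Hmox1 and partners of NRF2, the factor that binds the antioxidant response element, Mafg was called. This small Maf protein pairs with NRF2 and with the repressor BACH1. It fell by 0.80 on the log2 scale in knockout (adjusted p 0.0319) and 1.06 in control mice (adjusted p 0.017), with -0.68 ± 0.23 in overexpressing mice (adjusted p 0.155, limma). With 1 library left out the call held in 2 of 6 fits in knockout and 3 of 6 in control mice. The control call was also lost with the sex-chromosome term, at -1.25 ± 0.33 (adjusted p 0.137, limma). Nfe2l2, which encodes NRF2, read 47.1, 64.0 and 30.5 CPM in ethanol-fed knockout libraries, 28.5, 41.3 and 23.9 CPM in ethanol-fed overexpressing libraries and 46.1, 48.9 and 45.5 CPM in ethanol-fed control libraries, and it was not called. Of 5 tested genes of bilirubin conjugation and export and 16 of hepcidin regulation, 0 were called in any comparison. In the hepcidin list the smallest adjusted p with ethanol in control mice was that of Tmprss6, with a log2 change of -0.54 ± 0.17 (adjusted p 0.0897, limma). Id1, a target of the bone morphogenetic protein signal that also drives Hamp, had a log2 change of 1.57 ± 0.52 in the same comparison (adjusted p 0.113).

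**Figure D4:**
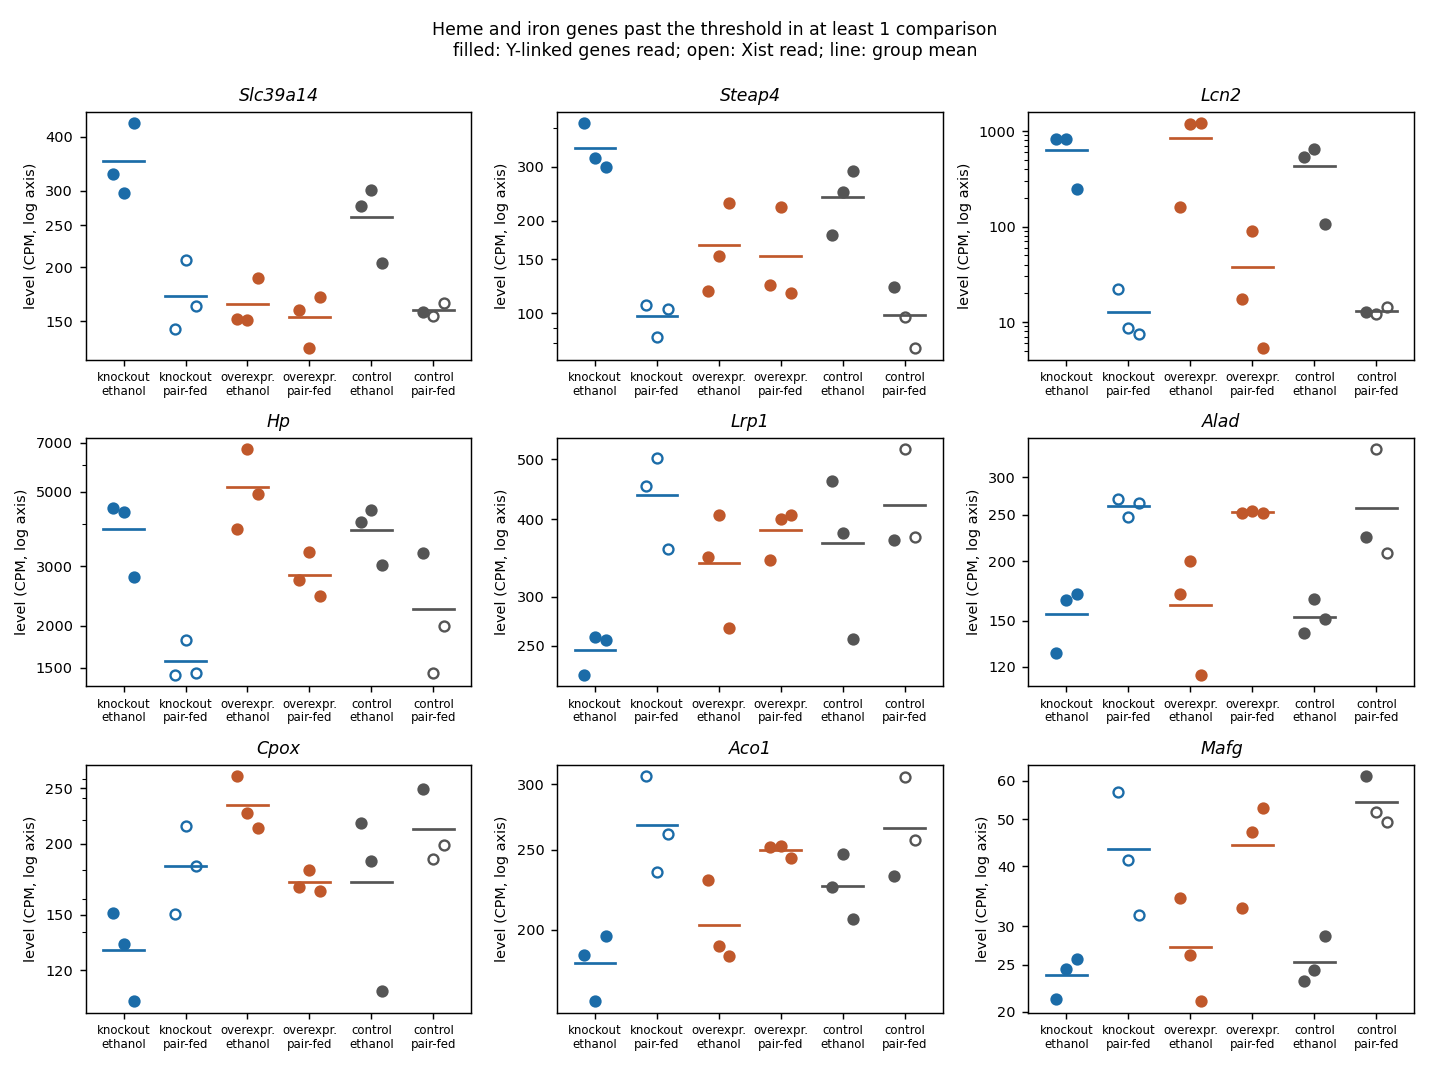
Levels in CPM (log axis) in each of 18 libraries of the 9 heme and iron genes outside the 10 members that passed an adjusted p of 0.05 in at least 1 comparison, by group, with a line at the group mean. Filled points read Y-linked genes and open points read Xist. For Slc39a14 the 3 ethanol-fed knockout libraries lie above all ethanol-fed overexpressing libraries.

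The genes whose log2 levels followed Hmox1 most closely over the 18 libraries, among 8448 genes with a mean of at least 5 CPM, were Cyp3a59 (Pearson r 0.771, Spearman rho 0.54), Glrx (0.743, 0.482), Ccl9 (0.723, 0.74), Gltscr1l (0.711, 0.36) and Dnajc18 (0.703, 0.567). With group means removed, the r of these genes was 0.398, 0.647, 0.677, 0.414 and 0.595 in the same order. The other members were left out of this ranking. The libraries share their groups, and the values are a description. Cyp3a59, a cytochrome P450, read 54.2, 165 and 137 CPM in ethanol-fed control libraries and 16.98, 20.4 and 40.0 CPM in pair-fed control libraries. The chemokine gene Ccl9 read 117, 312 and 375 CPM in the ethanol-fed and 86.1, 159 and 105 CPM in the pair-fed control libraries, so that its order among the ethanol-fed control libraries was that of Hmox1.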

How the data were processed

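The authors read liver RNA with an Ion AmpliSeq transcriptome panel, per the labels, and deposited CPM for 23930 genes in 18 libraries. Per-library log2 values, made with ampliSeqRNA 5.10.1.2 per the file headers, equal log2(CPM + 1) of the deposited table. Neither an aligner nor a build is named for them in the sources used here. Deposited CPM times the library total gave whole reads within 0.02 reads for 100% of values, so counts were recovered. The members, gene lists and tests were chosen with earlier results of these data known.

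The 11720 genes that reached 1 CPM in 3 or more libraries were tested on log2(CPM + 1) with limma 3.58.1 in R 4.3.3 (lmFit, eBayes with trend, all 18 libraries, 6 group means), two-sided, with Benjamini-Hochberg adjustment within each of 10 comparisons and a threshold of 0.05. Fold changes on this scale understate those of low genes. edgeR 4.0.16's quasi-likelihood test on the recovered counts was an alternative. The fit was also run on simulated counts with known changes, for ethanol in overexpressing mice only, and the share it recovered is not given here.

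The text names every member, every called gene of a list, some of the 2 genes with the smallest adjusted p where a list had no call, the 5 genes most like Hmox1, and Hpx, Nfe2l2, Clec4f and Cd163, chosen after their values were seen. Replicate numbers did not pair the libraries: same-numbered libraries of different groups deviated together with r from -0.267 to 0.279.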

Additional observations from a re-analysis of the deposited data

How the results depend on the processing

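Alternatives were a lower or higher filter, pseudocounts of 0.1 and 10, TMM, quantile normalization, edgeR, blocks, a sex-chromosome term, array weights, the compared groups alone, pair-fed control library 1 alone and each library left out. Of 197 counts of called neighbours, 190 were 0, as in the reported fit. In knockout mice on ethanol array weights called 3 (Alas1, Hmox2 and Slc40a1), the compared groups alone 2 (Hamp and Hmox2), and leaving out a library gave 0 to 1 (1 without pair-fed knockout library 1 or ethanol-fed knockout library 3). In knockout against control mice on ethanol array weights called 1 (Tfrc). In overexpressing against knockout mice on ethanol they called 2 (Alas1 and Tfrc), and leaving out a library gave 0 to 1 (Alas1 without ethanol-fed knockout library 3). The cause was not tested. With a replicate block Hmox1 kept 0.296 in overexpressing and 2.45 in control mice, 0 neighbours were called in each comparison, and of the other named genes Steap4 lost its call in overexpressing against knockout mice on ethanol (adjusted p 0.058). Hmox1 ran from 1.99 to 2.92 in control and from 0.000342 to 0.665 in overexpressing mice over all alternatives.

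Of 739 alternative values for 38 changes of single members, 8 reversed, and the cause was not tested. Small changes were left out of this count, except that of Hmox1 with ethanol in overexpressing mice. Hamp in knockout mice on ethanol was -0.75 with the sex-chromosome term. With libraries left out Hamp ran from -2.08 to 0.0657 with ethanol in overexpressing and from -2.72 to 0.18 in control mice. In overexpressing against control mice on ethanol Hamp was -0.26 with array weights and ran from -1.16 to 1.96 with libraries left out (-0.19 without ethanol-fed overexpressing library 2), and Tfrc ran from -1.003 to 0.157. The ethanol response of Tfrc in overexpressing minus control mice ran from -0.0164 to 1.27. The number of reads limits Blvra (at least 52 reads a library) and Tfrc (at least 22).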
